A study of Mus musculus with 24 samples.

Results

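The effect of social defeat on the hippocampal transcriptome was measured in 13 of 24 libraries, those with little of the 45S ribosomal RNA precursor Rn45s. The tissue was the hippocampus of C57BL/6 mice, and stress was social defeat by paired fighting, in which repeated aggressive encounters act as a social stressor. The stress libraries were WT stress replicates 3 to 6 and KO stress replicates 3 to 5 (n = 4 and 3), and the control libraries were WT control replicates 4 to 7 and KO control replicates 5 and 6 (n = 4 and 2). WT mice were wild type, KO mice carried a knockout of the interleukin-1 receptor 1 that the study's title places in neurons, and controls were not stressed. The labels do not state the driver of the knockout, the sex or age of the mice, the length of the stress or the time from its end to sampling. Whether every library is its own mouse is not stated either, so p-values cover only the spread between samples, which may be technical.

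The libraries were chosen on a measured value, Rn45s, which is therefore given without a test. Rn45s had 4107 to 8786 CPM (read counts scaled to a common library total; median 5917) in the 13 libraries and 24238 to 50453 CPM (median 35868) in the other 11. The library nearest to the boundary inside was KO stress replicate 5 at 8786 CPM, and the nearest outside had 24238 CPM. Within the 13, Rn45s ran from 4107 to 8786 CPM in the stress libraries (median 6672) and from 4471 to 8373 CPM in the control libraries (median 5372), so the stress and control libraries overlapped. The 11 libraries left out carried the low replicate numbers and comprised 2 WT stress, 2 KO stress, 3 WT control and 4 KO control libraries.

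**Figure D1:**
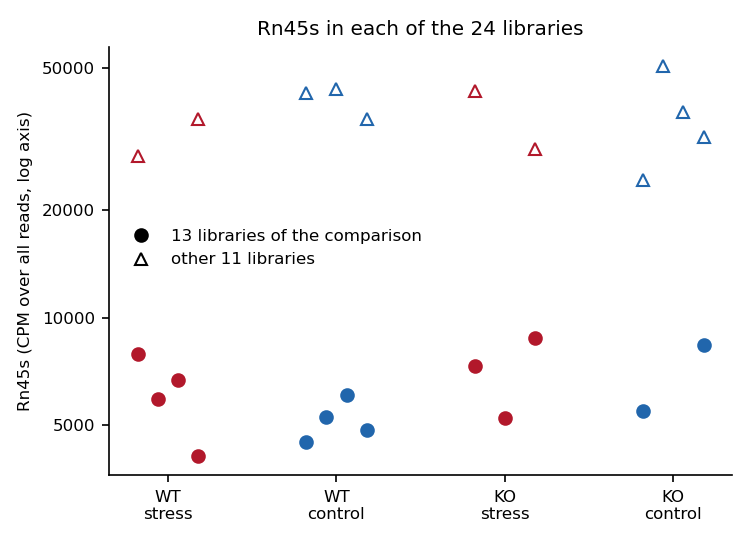
Rn45s in each library (CPM over all reads, log axis) by group, with red for stress and blue for control. Filled circles are the 13 libraries compared here, at 4107 to 8786 CPM, and open triangles are the other 11, at 24238 CPM or more.

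As background, defeat stress acts on the brain along several routes. The adrenal cortex releases corticosterone, which crosses into the brain and switches on genes through the glucocorticoid receptor. Stress and wounding also mobilise neutrophils, monocytes and immature red cells from the bone marrow, and the endothelial cells that line brain vessels respond to circulating cytokines with adhesion molecules and acute-phase genes. Interleukin-1 acts through its receptor Il1r1, which brain endothelium carries as well as some neurons.

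Depth was 26157103 to 35148198 counts per library in the 13, and a gene with 3 reads stood at 0.0853 to 0.114 CPM. The libraries held transcripts of the hippocampus: the glutamate transporter gene Slc17a7 had a median of 2360 CPM, the CA3 kainate receptor gene Grik4 55.5 CPM, the pyramidal transcript Spink8 19.8 CPM and the dentate gene Prox1 11.3 CPM. Some libraries also held transcripts of neighbouring structures. Tcf7l2, a transcription factor of the thalamus, stood at 105 CPM in WT stress replicate 5, 109 CPM in KO stress replicate 3 and 86.9 CPM in KO stress replicate 5, and at 16.7 CPM or less in each of the other 10. No control library was among the 3. Spink8 had 6.11 and 8.26 CPM in KO stress replicates 3 and 5, against 22.3 CPM in KO stress replicate 4. It had 12.6 to 41.8 CPM in WT stress and 16.8 to 29.3 CPM in control libraries. Ttr, the transthyretin gene of the choroid plexus, had 724 to 1919 CPM in KO stress and 16.3 to 18.3 CPM in KO control libraries. Counts of genes are therefore also given without the 3 stress libraries high in Tcf7l2. That leaves KO stress replicate 4 as the only KO stress library.

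Stress raised 106 of 16548 genes and lowered 8 in the 13 libraries, with genotype as a term in the model (0.641% and 0.0483% of the genes tested). The threshold was an edgeR quasi-likelihood p under 0.05 after Benjamini-Hochberg adjustment over all genes tested, which applies to every adjusted p below unless another test is named. Log2 fold changes are stress over control and carry a standard error (SE). A gene was tested if it was expressed in as many libraries as the smallest group holds. List members near absent from the controls could thus enter through the stress libraries, where they are high, which can raise a list median. At an unadjusted p under 0.05 there were 2624 genes, where chance gives 827. Of all genes tested, 52.5% had a log2 fold change above 0, which is the share to set beside the counts of list members above 0 below. Of the 106 genes that rose, 37 had a log2 fold change above 1, and 66 had every stress library above every control library, where 0.695% of all genes tested did. Of the 8 that fell, 4 had every stress library below every control library, against 0.236% of all genes. All 114 had the same sign in KO and in WT mice. They were picked on the effect over both genotypes in these libraries, so a shared sign is partly a result of the choice. The share over all genes was not counted. Without the 3 stress libraries with thalamic transcripts 67 genes rose and 2 fell, and 55 of the 114 were among them.

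The count rested on single libraries in part. It was lowest, at 29 genes, without WT control replicate 4, and highest, at 185, without KO stress replicate 4. It was also moved by over 1.5 times without WT control replicate 5 (44 genes) or 7 (64), KO control replicate 5 (53) or 6 (47) or WT stress replicate 5 (61). Of the 114 genes, 27 passed in each of the 13 fits that left out 1 library and 87 were lost without at least 1, at an adjusted p of at most 0.165. No gene changed sign. Among the 27 were the red cell genes Alas2 and Slc4a1, the endothelial and inflammatory genes Il1r1, Lcn2, Lrg1, Vwf, Tmem252, Ctla2a, Eng, Slc2a1, Eltd1, Csf3r and Itgb2, the genes Pdk4, Sgk1, Arrdc2 and Klf15, which glucocorticoids induce, the early response gene Maff, and 8 genes named after their values were seen: Igfbp7, Tmem176a, Slc38a5, Grrp1, Acer2, Adcy4, Apol11b and Cd300lf.

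**Figure D2:**
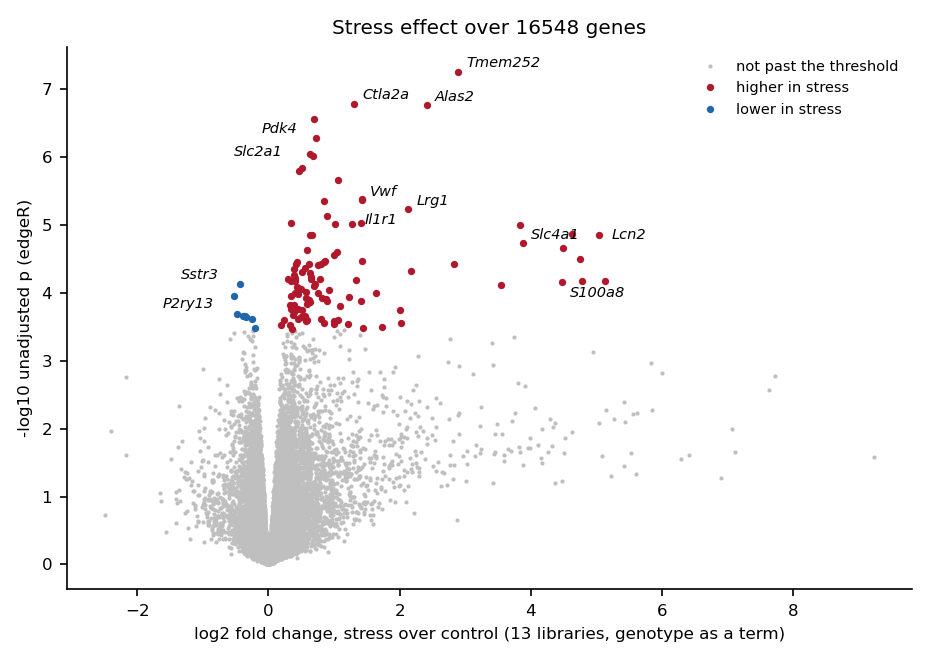
Log2 fold change of stress over control (x axis) against −log10 of the unadjusted edgeR p (y axis) for 16548 genes in the 13 libraries. The 106 red genes rose, up to a log2 fold change of 5.13, and the 8 blue genes fell, none below −0.53.

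Il1r1, the gene of the interleukin-1 receptor that the knockout targets, rose with stress over both genotypes together. This protein-coding gene (ENSMUSG00000026072.12) spans bases 40225080 to 40317257 of chromosome 1, plus strand, in GENCODE vM21 on mm10. KO stress replicates 3 to 5 had 5.71, 6.44 and 7.93 CPM, against 2.58 and 2.10 CPM in KO control replicates 5 and 6. WT stress replicates 3 to 6 had 5.56, 7.31, 6.91 and 5.52 CPM, against 2.26, 4.57, 2.71 and 1.99 CPM in WT control replicates 4 to 7. Every stress library thus lay above every control library. The log2 fold change was 1.28 ± 0.19 (SE, adjusted p = 0.00812), with 1.52 in KO and 1.14 in WT mice. The adjusted p is for both genotypes together, and in KO mice alone no gene passed (edgeR, smallest adjusted p = 0.416). Permuting the labels exactly within genotype, two-sided, on log2(CPM + 0.5) gave p = 0.00143, the smallest that its 700 permutations can give (0.00571 adjusted over 4 genes). The levels in KO and WT controls overlapped, and the labels do not say whether the knockout removes counted exons, so Il1r1 does not check the genotype labels here.

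The other 3 genes tested singly did not pass. Il1b, the gene of the ligand interleukin-1 beta, had 0.0671 to 1.12 CPM in stress libraries (median 0.461) and 0.0714 to 0.349 CPM in control libraries (median 0.223), and the control libraries held 40 reads of it in all. Its log2 fold change was 1.48 ± 0.56 (adjusted p = 0.25; exact permutation p = 0.109, 0.217 adjusted over the 4 genes). The exact permutation test passed for Il1b without KO stress replicate 3 (p = 0.00952 adjusted over the 4 genes), where the mean difference of log2(CPM + 0.5) was 0.656 in place of 0.486. Fkbp5, a glucocorticoid-induced co-chaperone gene, had a log2 fold change of 0.06 ± 0.14 (adjusted p = 0.86; exact permutation p = 0.879), and the immediate early gene Fos −0.02 ± 0.59 (adjusted p = 0.99; exact permutation p = 0.907).

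Of 26 measured genes of IL-1 receptor signalling 2 rose, Il1r1 and Nfkbia, the NF-kB inhibitor that NF-kB itself induces, and 0 fell. Nfkbia averaged 35.5 ± 5.97 CPM in stress and 24.9 ± 2.52 CPM in control libraries (SD, n = 7 and 6; log2 fold change 0.52 ± 0.10, adjusted p = 0.0337). It passed in 4 of the 13 fits that each left out 1 library, with an adjusted p of 0.113 without KO control replicate 5. The median log2 fold change of the list was 0.11, beside 0.01 over all genes tested. Of 17 genes of gp130 and STAT3 signalling 1 rose, the oncostatin M receptor gene Osmr (0.69 ± 0.13, adjusted p = 0.0219; 0.0688 without WT control replicate 4), with a list median of 0.17.

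Of 12 measured red blood cell markers 5 rose and 0 fell, and 3 rose without KO control replicate 6 or WT control replicate 4. Alas2, which encodes the first enzyme of the heme pathway in red cell precursors, had 15.3 to 42.7 CPM in stress libraries (median 26.5) and 3.95 to 7.70 CPM in control libraries (median 5.04), without overlap. Its log2 fold change was 2.41 ± 0.24 (adjusted p = 0.000935), with 1.93 in KO and 2.71 in WT mice. Its span is X, bases 150547375 to 150570638, plus strand. Slc4a1, the red cell anion exchanger, averaged 3.14 ± 2.49 CPM in stress and 0.198 ± 0.20 CPM in control libraries (3.88 ± 0.60, adjusted p = 0.0122), with 35 reads in all in the controls. The alpha-globin gene Hba-a2 (1.63 ± 0.30, adjusted p = 0.0246; 0.0794 without WT control replicate 4) and the ubiquitin-conjugating enzyme gene Ube2l6 (0.75 ± 0.13, adjusted p = 0.0166; 0.0601 without KO control replicate 6) were also among the 5. The count of Hba-a2 is uncertain, because Hba-a1 is a near-identical copy. The list median was 0.88, all 12 log2 fold changes lay above 0, and the summed level of the list was 196 to 248 CPM in stress and 160 to 175 CPM in control libraries. In bulk tissue, more cells of a type and more RNA per cell cannot be told apart.

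Some neutrophil and monocyte markers rose. Of 13 neutrophil markers 4 rose: Csf3r, the receptor of granulocyte colony-stimulating factor, Retnlg (adjusted p = 0.0561 without WT control replicate 4), and S100a8 and S100a9, the subunits of calprotectin. S100a8 had 3.02, 9.26, 7.48 and 3.93 CPM in WT stress replicates 3 to 6 and 0.403, 4.35 and 3.62 CPM in KO stress replicates 3 to 5, against 0 to 0.61 CPM in the 6 control libraries. KO stress replicate 3 alone lay within the range of the controls. The log2 fold change of S100a8 was 4.47 ± 0.77 (adjusted p = 0.0207; 0.0691 without WT control replicate 4), and the controls held 36 reads of it. Csf3r averaged 10.7 ± 1.17 CPM in stress and 6.93 ± 0.808 CPM in control libraries, without overlap (0.64 ± 0.10, adjusted p = 0.0098). The summed neutrophil list had a median of 13.3 CPM in the control libraries, so Csf3r made up much of that sum. Of 16 monocyte markers 5 rose, among them the lysozyme gene Lyz2, at 18.7 ± 7.15 CPM in stress and 6.97 ± 1.58 CPM in control libraries (1.43 ± 0.23, adjusted p = 0.0165; 0.0561 without WT control replicate 4), and the haptoglobin gene Hp (2.17 ± 0.38, adjusted p = 0.0187; 0.0537 without the same library). The others were Chil3, Ly6c2 and Ms4a6c. The list medians were 2.07 and 1.68, and 0 of 6 measured lymphocyte markers passed. Without WT control replicate 4 the numbers that rose were 1 neutrophil marker, which was Csf3r, and 0 monocyte markers. Without KO control replicate 6 or WT control replicate 7 they were 2 and 1, without WT control replicate 5 they were 2 and 2, and without KO control replicate 5, 4 and 2. Each stress library left out kept 4 or 5 neutrophil and 3 or 4 monocyte markers. The summed level of the neutrophil markers was 24.7 to 56.5 CPM in stress and at most 14.3 CPM in control libraries. That of the monocyte markers was 170 to 435 CPM in stress (median 214) and 120 to 286 CPM in control libraries (median 255), so the libraries overlapped and the median was lower in stress. Lyz2 averaged only 6.97 CPM in control libraries, so other members of the list, which includes Ace and Nr4a1, made up most of this sum. The sum is therefore not read as a level of monocytes.

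Of 21 measured genes of endothelial activation 8 rose and all 21 lay above 0, with a median of 0.60, and 6 to 8 rose when 1 library was left out. Like the other lists, this one was chosen with earlier results of these data known. The share that rose is therefore a description and no independent support. Lcn2, the iron-binding acute-phase protein lipocalin 2, had 4.95, 5.22, 12.7 and 19.9 CPM in WT stress replicates 3 to 6 and 1.28, 7.28 and 13.7 CPM in KO stress replicates 3 to 5, against 0 to 0.754 CPM in the control libraries, which held 53 reads of it. Every stress library lay above every control library, and the log2 fold change was 5.04 ± 0.72 (adjusted p = 0.0098). Lrg1, a glycoprotein of inflamed endothelium, averaged 9.54 ± 3.8 CPM in stress and 2.15 ± 0.533 CPM in control libraries (2.13 ± 0.30, adjusted p = 0.00693). Vwf, the von Willebrand factor gene, had 40.3 to 87.0 CPM in stress libraries (median 69.2) and 17.8 to 32.8 CPM in control libraries (median 24.6), without overlap (1.42 ± 0.18, adjusted p = 0.00568).

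Tmem252, a transmembrane protein gene of the activation list, had the smallest p of all genes. It had 6.25 to 12.5 CPM in WT stress and 2.68 to 7.67 CPM in KO stress libraries, against 0.714 to 1.15 CPM in the 6 control libraries, so no library overlapped (2.90 ± 0.28, adjusted p = 0.000908). Ctla2a, a cathepsin inhibitor gene whose count is uncertain because the mouse has a near-identical Ctla2b, averaged 10.9 ± 1.52 CPM in stress and 4.43 ± 0.902 CPM in control libraries (1.30 ± 0.14, adjusted p = 0.000935). Icam1, the adhesion molecule that holds leukocytes to endothelium, averaged 5.90 ± 1.72 CPM in stress and 3.18 ± 0.485 CPM in control libraries (0.92 ± 0.17, adjusted p = 0.0234; 0.0781 without KO control replicate 6). Ch25h, the cholesterol 25-hydroxylase gene, was the eighth of these with Il1r1 (2.01 ± 0.40, adjusted p = 0.0337; 0.106 without WT control replicate 4).

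Of 25 endothelial identity genes 7 rose and 0 fell, with a median of 0.27, and 3 rose without KO control replicate 6 or WT control replicate 4 or 5. They included Slc2a1, the glucose transporter of the blood-brain barrier, the endoglin gene Eng (0.34 ± 0.05, adjusted p = 0.00812), and the P-glycoprotein gene Abcb1a (0.39 ± 0.07, adjusted p = 0.0199; 0.0682 without KO control replicate 6). Ly6a, Ly6c1, Flt1 and Tek were the others. The summed level of these identity genes was 987 to 1125 CPM in stress and 851 to 900 CPM in control libraries, without overlap, so a larger endothelial share and more RNA per endothelial cell cannot be told apart. Of 15 pericyte and smooth muscle genes 1 rose, the potassium channel regulator Abcc9 (0.63 ± 0.11, adjusted p = 0.0165; 0.0561 without WT control replicate 4), with a median of 0.36, and 0 rose without that library. Of 16 fibroblast and meningeal genes 0 passed, with 15 above 0 and a median of 0.26.

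Of 28 glucocorticoid-responsive genes 9 rose, 0 fell and 23 lay above 0, with a median of 0.36. Pdk4, the kinase that holds back pyruvate oxidation, had 15.2 to 15.97 CPM in KO stress and 10.8 to 14.9 CPM in WT stress libraries, against 7.62 to 9.22 CPM in the control libraries, without overlap (0.72 ± 0.08, adjusted p = 0.0017). Sgk1, the serum- and glucocorticoid-regulated kinase gene, had 140 to 158 CPM in KO stress and 84.9 to 151 CPM in WT stress libraries, against 59.8 and 87.8 CPM in KO control and 46.9 to 65.5 CPM in WT control libraries. Only KO control replicate 6 reached the range of the stress libraries, and the log2 fold change was 1.02 ± 0.14 (adjusted p = 0.00812). Slc2a1, which is on this list too, had 138 to 208 CPM in stress libraries (median 170) and 102 to 118 CPM in control libraries (median 111), without overlap (0.68 ± 0.08, adjusted p = 0.00229).

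Arrdc2, an arrestin domain gene, averaged 27.1 ± 5.37 CPM in stress and 14.9 ± 1.42 CPM in control libraries (0.84 ± 0.12, adjusted p = 0.00568). Tsc22d3, the gene of the glucocorticoid-induced leucine zipper, had 60.1 to 110 CPM in stress libraries (median 90.8) and 44.6 to 69.6 CPM in control libraries (median 56.7), with overlap (0.59 ± 0.11, adjusted p = 0.0297; 0.109 without KO control replicate 5). Ddit4 (0.40 ± 0.07, adjusted p = 0.0199; 0.0637 without WT control replicate 5), Errfi1 (0.33 ± 0.06, adjusted p = 0.0302; 0.113 without KO control replicate 5), Nfkbia and Lcn2 completed the 9, and Lcn2 and Nfkbia are also induced by inflammation. The corticosteroid receptor genes Nr3c1 and Nr3c2 had log2 fold changes of −0.03 and −0.15 (adjusted p = 0.886 and 0.536), and the metallothionein genes Mt1 and Mt2 both 0.28 (adjusted p = 0.25 and 0.291). Klf15, a transcription factor outside the list that glucocorticoids induce, averaged 32.3 ± 2.55 CPM in stress and 23.2 ± 2.06 CPM in control libraries (0.46 ± 0.06, adjusted p = 0.0029). The number of the 28 that rose was 7 without the 3 stress libraries with thalamic transcripts, and 5 to 9 when 1 library was left out (5 without KO control replicate 5 or WT control replicate 4 or 5).

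**Figure D3:**
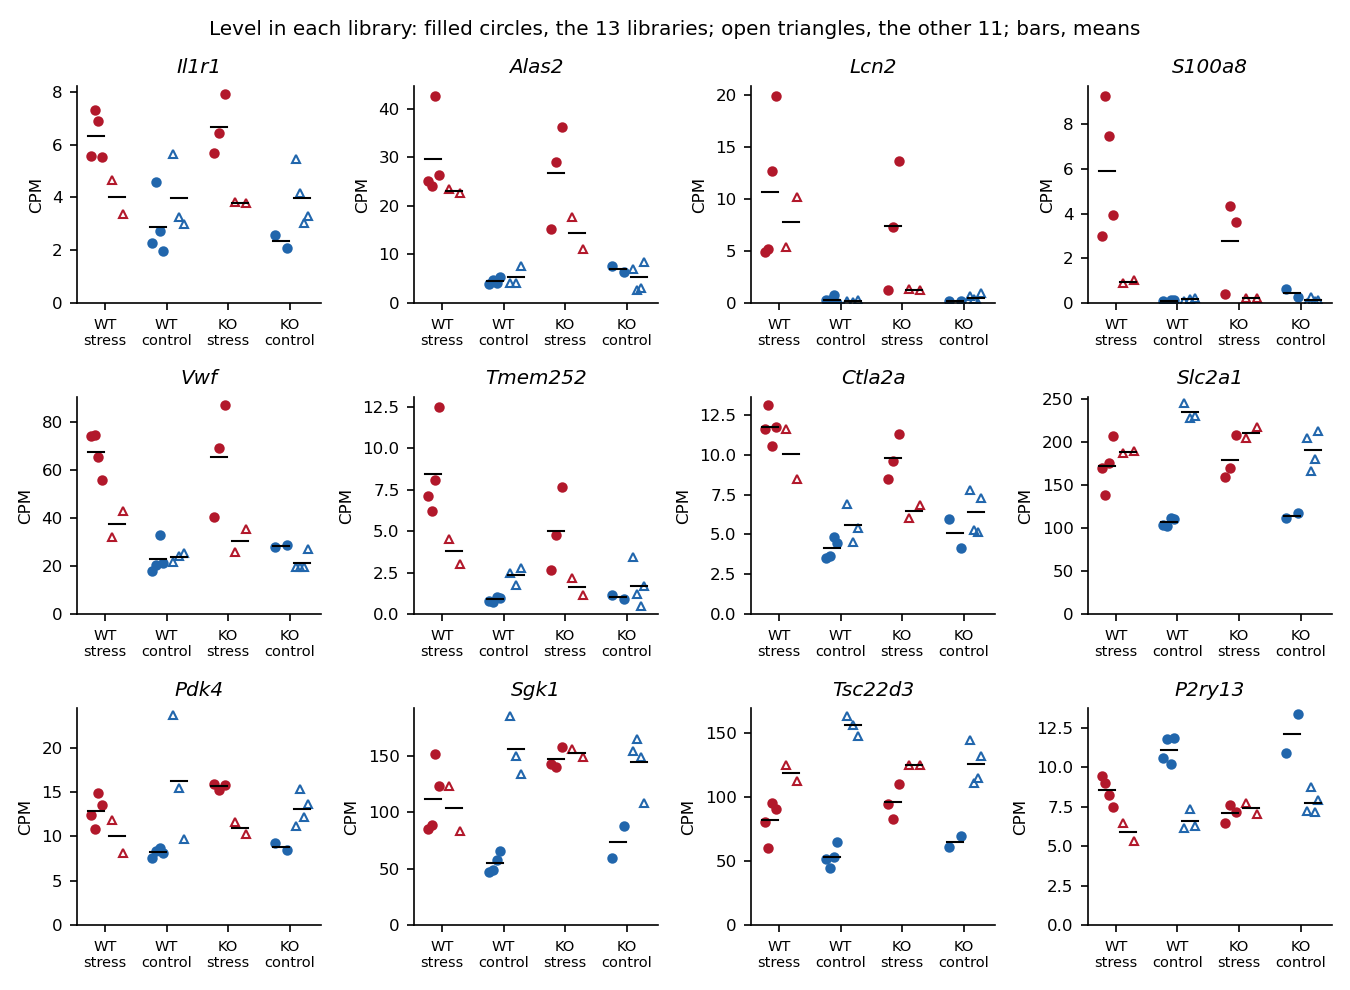
Level of 12 genes in each library (CPM with library sizes scaled by TMM, the trimmed mean of M values) by group, with red for stress and blue for control. Filled circles are the 13 libraries, open triangles the other 11, and bars the means; Slc2a1 stands at 138 CPM or more in every library except the control libraries of the 13, while Alas2 is high in the stress libraries of both sets.

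Other glial and immune lists had 0 to 4 genes past the threshold. Of 32 interferon-stimulated genes 4 rose (Ifitm3, Isg20, Ifitm1 and Isg15) and 30 lay above 0, with a median of 0.41; the number that rose was 1 without the 3 stress libraries with thalamic transcripts, 0 without KO control replicate 6 or WT control replicate 4, and 0 to 5 over all libraries left out in turn. Ifitm3, a membrane protein that blocks virus entry, averaged 22.4 ± 4.91 CPM in stress and 13.2 ± 2.91 CPM in control libraries (0.79 ± 0.14, adjusted p = 0.0199; 0.0687 without KO control replicate 6). Of 16 complement genes 2 rose, among them the leukocyte integrin gene Itgb2, at 7.50 ± 1.03 CPM in stress and 4.81 ± 0.487 CPM in control libraries (0.66 ± 0.10, adjusted p = 0.0098). Of 24 reactive astrocyte genes 3 rose, Lcn2, Osmr and the intermediate filament gene Vim (0.44 ± 0.08, adjusted p = 0.0165; 0.0601 without KO control replicate 6), and of 15 astrocyte genes 1, the connexin 30 gene Gjb6 (0.41 ± 0.07, adjusted p = 0.0199; 0.0662 without KO control replicate 5). Of 33 immediate early genes 2 rose, Maff (1.42 ± 0.20, adjusted p = 0.00568) and Ier3 (1.05 ± 0.17, adjusted p = 0.015; 0.0543 without WT control replicate 4), with a median of −0.03. This median was 0.38 in WT and −0.51 in KO mice, and the difference between these medians was not tested.

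The 8 genes that fell did so by small amounts. P2ry13, an ADP receptor gene of microglia, had 6.44, 7.61 and 7.17 CPM in KO stress replicates 3 to 5, against 10.9 and 13.3 CPM in KO control replicates 5 and 6. WT stress replicates 3 to 6 had 9.46, 8.99, 8.24 and 7.46 CPM of P2ry13, against 10.6, 11.8, 10.2 and 11.9 CPM in WT control replicates 4 to 7. No library overlapped, and P2ry13 fell by 0.53 ± 0.10 on the log2 scale (adjusted p = 0.0256; 0.085 without KO control replicate 6). It was the 1 member of 21 microglia genes that passed, and 15 of the 21 lay above 0. Sstr3, a somatostatin receptor gene of neuronal cilia, had 29.0 to 43.0 CPM in stress libraries and 45.7 to 54.4 CPM in control libraries (−0.44 ± 0.08, adjusted p = 0.021; 0.0818 without KO control replicate 5). The others were 2810029C07Rik (−0.48), the cold-induced RNA-binding protein gene Rbm3 (−0.39), Cd276 (−0.35), Zfp46 (−0.34), Fam92a (−0.25) and the mitochondrial protein gene Nipsnap1 (−0.21), at adjusted p from 0.0374 to 0.0485. Each of these 6 was lost in at least 9 of the 13 fits that left out 1 library.

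Markers of some neighbouring structures, and those of oligodendrocytes, had log2 fold changes above 0 without passing. All 19 thalamus and habenula markers had a log2 fold change above 0 (median 1.29), as had all 16 hypothalamus markers (median 2.30) and all 17 oligodendrocyte and myelin markers (median 0.43), and 0 of each passed. Those of other neighbours were divided. Above 0 were 9 of 12 ependymal markers (median 0.27), 6 of 13 striatum markers (median −0.01) and 5 of 14 neocortex markers (median −0.08). The summed thalamus level was 211 to 1135 CPM in stress and 239 to 379 CPM in control libraries, the hypothalamus level 12.9 to 343 and at most 32.3 CPM, and the oligodendrocyte level 4819 to 13160 and 4413 to 8191 CPM. All 20 choroid plexus markers lay above 0 too (median 0.76, with 3.05 in KO and −0.20 in WT mice; 123 to 2795 CPM in stress and 164 to 3221 CPM in control libraries). These medians moved with single libraries. Without WT stress replicate 5 they were 0.61 for thalamus, 1.47 for hypothalamus and 0.16 for choroid plexus, where 14 of 20 lay above 0. The choroid plexus median was also 0.28 without KO control replicate 5, 0.29 without KO control replicate 6, 1.32 without WT control replicate 6 and 1.15 without WT stress replicate 6. Of 12 CA1 and 11 CA3 pyramidal markers 2 each lay above 0, and of 15 dentate granule cell markers 3, with medians of −0.18, −0.20 and −0.13. In KO and WT mice the medians were −0.40 and −0.06 for CA1, −0.10 and −0.33 for CA3, and −0.17 and −0.08 for dentate markers. With the thalamic markers as a term in the model 71 genes rose and 1 fell, 59 of them among the 114, and with the choroid plexus markers as a term 94 rose and 3 fell.

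**Figure D4:**
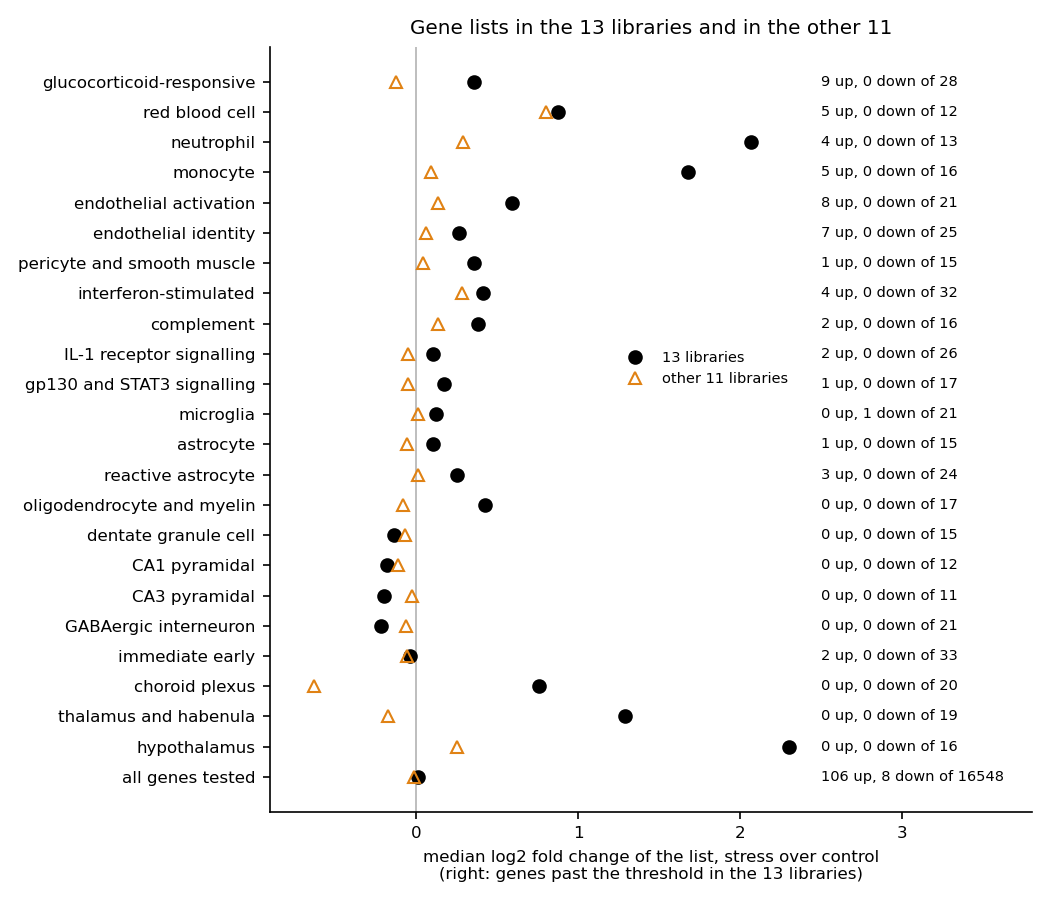
Median log2 fold change of stress over control for 23 gene lists and for all genes tested, in the 13 libraries (black circles) and in the other 11 (orange triangles), with the number of genes past the threshold in the 13 at the right. Each median covers the genes tested in that set. The glucocorticoid-responsive list lies at 0.36 in the 13 and −0.12 in the other 11, and the red blood cell list at 0.88 and 0.80.

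The stress effect was also tested within each genotype of the 13 libraries. In KO mice (3 stress against 2 control libraries) 0 genes passed in the edgeR test, with a smallest adjusted p of 0.416. At an unadjusted edgeR p under 0.05 there were 1929 genes in KO and 1094 in WT mice, where chance gives 827. In KO mice DESeq2 called 40 genes higher and 7 lower and limma voom 420 and 464. In WT mice (4 against 4) 20 genes rose and 0 fell (0.121% of the genes tested), and 19 of the 20 were among the 114. They included Alas2 (2.71 ± 0.27), Tmem252 (3.26 ± 0.33), Ctla2a (1.51 ± 0.16), Lrg1 (2.52 ± 0.34), S100a8 (6.13 ± 0.83), Vwf (1.55 ± 0.23), Slc2a1 (0.69 ± 0.11) and Pdk4 (0.66 ± 0.11). The WT count was 3 without WT control replicate 4 or 7, 4 with either WT library numbered 5 left out, 7 to 12 without WT control replicate 6, WT stress replicate 3, 4 or 6 or either KO control library, and 39 without KO stress replicate 3, since all 13 libraries share the estimate of the spread. The test of the difference itself, the effect of stress in KO less that in WT mice, gave 0 genes in edgeR, DESeq2 and limma voom. In edgeR 469 genes had an unadjusted p under 0.05, where chance gives 827, and the smallest adjusted p was 0.993. A difference between genotypes was thus not detectable with these libraries.

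Stress libraries differed in how far they moved. KO stress replicate 3 was the lowest stress library for 41 of the 106 genes that rose, among them Alas2, Lcn2, S100a8, Vwf, Lrg1 and Tmem252. It was not the lowest for Pdk4 or Sgk1, where WT stress replicates 4 and 3 were, at 10.8 and 84.9 CPM. KO stress replicate 3 is 1 of the 3 libraries with thalamic transcripts, and the other 2, KO stress replicate 5 and WT stress replicate 5, were the lowest for 3 genes each. WT stress replicates 3, 4 and 6 were the lowest for 13, 20 and 16 genes and KO stress replicate 4 for 10. The 106 genes were picked on these same libraries, the same count over all genes was not made, and the cause was not tested.

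The other 11 libraries, which share no sample with the 13, gave 0 genes in the same test (737 of 16569 at an unadjusted p under 0.05, where chance gives 828). DESeq2 called 7 higher and 2 lower there and limma voom 7 higher. Of the 106 genes that rose in the 13, 102 were tested in the other 11, and 64 of these (62.7%) lay above 0 there, against 47.9% of all genes. Their median log2 fold change was 0.71 in the 13, which is high by choice since the genes were picked on those libraries, and 0.08 in the other 11. Of the 102, 22 had an unadjusted p under 0.05 in the same direction, as had 2.21% of all genes.

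The list medians of both sets are given as a description, without a test. Each set was filtered for expression on its own, so the medians of some lists cover unlike numbers of genes. There were 13 neutrophil, 16 monocyte and 12 red cell genes in the 13 libraries, and 8, 9 and 10 in the other 11. The red blood cell list had a median of 0.88 in the 13 and 0.80 in the other 11, and the interferon-stimulated list 0.41 and 0.28. The values of Alas2 were 2.41 and 1.78 on the log2 scale, and those of Lcn2 5.04 and 3.33. The neutrophil list had medians of 2.07 and 0.29, the monocyte list 1.68 and 0.09 and the endothelial activation list 0.60 and 0.14. The glucocorticoid-responsive list had medians of 0.36 and −0.12, with 23 of 28 above 0 in the 13 and 5 of 28 in the other 11. With all 24 libraries and the library set as a term 1 of the 28 rose, where the 13 alone gave 9.

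A test of the difference between the sets, the stress effect in the 13 minus that in the other 11, gave 16 genes of 16313, all with the larger value in the 13 (0.0981%; 2291 at an unadjusted p under 0.05, where chance gives 816). Of the 16, 14 were among the 114. Pdk4 differed by 1.19 ± 0.22, Sgk1 by 1.24 ± 0.24, Slc2a1 by 0.75 ± 0.13, Klf15 by 0.62 ± 0.12, Eltd1, an endothelial adhesion receptor gene, by 0.68 ± 0.13 and the tissue factor gene F3 by 0.58 ± 0.10 (adjusted p = 0.0388 for each). Tmem252 differed by 2.57 ± 0.51 (adjusted p = 0.0483). Tsc22d3 and Il1r1 were outside the threshold (adjusted p = 0.0511 and 0.0909), and Alas2 (0.456), Lcn2 (0.472) and Hba-a2 (0.992) were far from it. Single libraries decided these calls: 15 of the 24 fits that each left out 1 library gave 0 genes, and Slc2a1 and F3, the most stable, passed in 7 of the 24.

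The sets differed in the levels of the controls for Sgk1, Slc2a1 and Pdk4, and also for Tsc22d3 and Il1r1, which were outside the threshold of that test. Sgk1 averaged 127 ± 29.4 CPM in stress and 61.2 ± 14.8 CPM in control libraries of the 13, and 128 ± 33.1 and 149 ± 24.1 CPM in stress and control libraries of the other 11 (n = 4 and 7). Slc2a1 averaged 175 ± 25.2 and 109 ± 5.80 CPM in the 13, and 200 ± 14.2 and 210 ± 28.3 CPM in the other 11. Pdk4 averaged 14.1 ± 1.92 and 8.40 ± 0.538 CPM in the 13, and 10.5 ± 1.69 and 14.5 ± 4.59 CPM in the other 11. Tsc22d3 averaged 87.7 ± 15.7 and 57.3 ± 9.32 CPM in the 13, and 122 ± 6.22 and 139 ± 20.2 CPM in the other 11. Il1r1 averaged 6.48 ± 0.944 and 2.70 ± 0.956 CPM in the 13, and 3.91 ± 0.546 and 3.98 ± 1.14 CPM in the other 11. The control libraries of the 13 thus had the lowest mean of the 4 for each of these 5 genes. All 5 were among the genes that rose in the 13, so a low control mean there is partly a result of the choice. The order was not counted over all genes. Alas2 did not follow this order, at 28.4 ± 8.85 and 5.36 ± 1.47 CPM in the 13, and 18.8 ± 5.63 and 5.29 ± 2.31 CPM in the other 11. The library set moves with these control levels, and its part in the difference was not tested. With log2 Rn45s as a term in the model of the 13 libraries, 81 genes rose and 2 fell, 80 of them among the 114, and 8 of the 28 glucocorticoid-responsive genes rose.

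**Figure D5:**
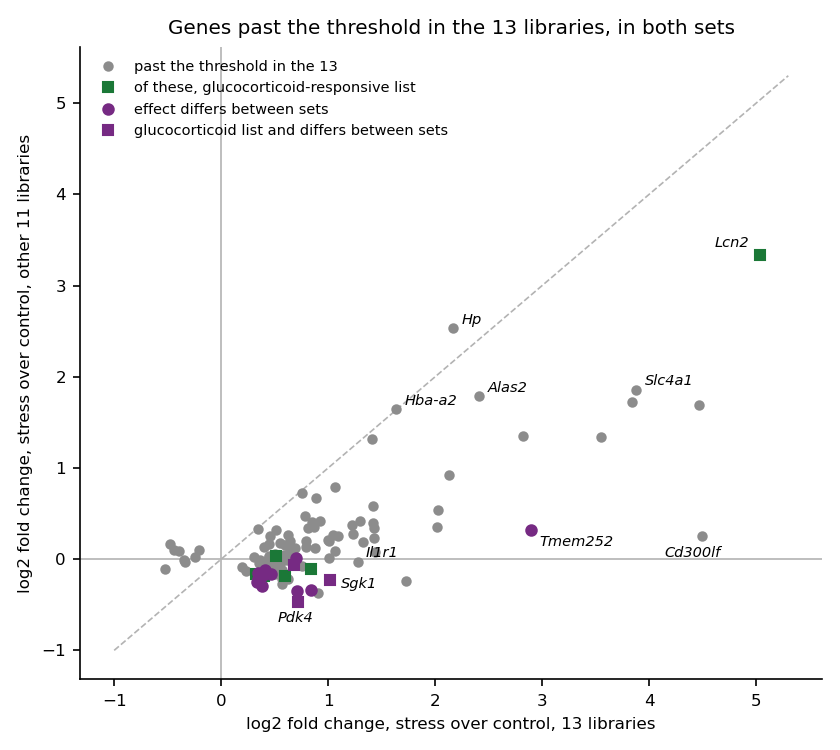
Log2 fold change of stress over control in the 13 libraries (x axis) and in the other 11 (y axis) for the genes past the threshold in the 13 that were tested in both; the dashed line marks equal effects. Alas2, Hba-a2, Hp and Lcn2 lie well above 0 in both sets, while Sgk1, Pdk4 and Tmem252, whose effects differed between the sets, lie near or below 0 in the other 11, except for Tmem252 at 0.32.

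Promoters of the genes that rose were read for 4 short motifs, since inflammatory and erythroid genes are known targets of STAT, NF-kB and GATA factors. The window was the 250 bases before the first start listed by RefSeq for each gene, which 85 of the 106 genes had. The STAT motif TTCNNNGAA was present on either strand in 14 of 85 promoters (16.5%), against 7.18% of 27025 promoters of all genes and 6.01% of those of the genes tested. The NF-kB motif (GGG, any 2 bases, TTTCC) was in 3 of 85 (3.53%), against 1.40%, and the GATA motif AGATAA in 11 of 85 (12.9%), against 10.3% of all promoters and 6.27% of those of the genes tested. The palindromic glucocorticoid motif (GNACA, any 3 bases, TGTNC) was in 1 of 85 (1.18%), against 0.381%, and in 0 of the 9 glucocorticoid-responsive genes that rose. These shares describe letters in a short window and not binding. Shown are the windows of Icam1 (chr9:21015690-21015939, plus strand) and Ctla2a (chr13:60936626-60936875, minus strand) with the STAT match in capitals, of Nfkbia (chr12:55492648-55492897, minus strand) with the NF-kB match and of Alas2 (chrX:150547167-150547416, plus strand) with the GATA match, which read TTATCT on this strand. The sequences are from RefSeq, build GRCm38.p6, 5′ to 3′ on the strand of the gene:
Icam1: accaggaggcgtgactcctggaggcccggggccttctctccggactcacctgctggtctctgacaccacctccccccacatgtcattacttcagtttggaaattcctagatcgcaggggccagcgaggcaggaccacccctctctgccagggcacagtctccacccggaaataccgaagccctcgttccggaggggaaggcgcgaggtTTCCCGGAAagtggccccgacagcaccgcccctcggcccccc
Ctla2a: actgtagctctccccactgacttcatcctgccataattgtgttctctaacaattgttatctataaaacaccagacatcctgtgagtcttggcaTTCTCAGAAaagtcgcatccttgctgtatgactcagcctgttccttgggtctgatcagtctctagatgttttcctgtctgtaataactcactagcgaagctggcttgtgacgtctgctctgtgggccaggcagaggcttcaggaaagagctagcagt
Nfkbia: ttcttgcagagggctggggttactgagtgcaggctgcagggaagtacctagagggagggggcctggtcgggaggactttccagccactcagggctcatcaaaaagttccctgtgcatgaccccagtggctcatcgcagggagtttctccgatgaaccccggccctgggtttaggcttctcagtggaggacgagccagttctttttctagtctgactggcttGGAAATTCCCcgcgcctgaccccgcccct
Alas2: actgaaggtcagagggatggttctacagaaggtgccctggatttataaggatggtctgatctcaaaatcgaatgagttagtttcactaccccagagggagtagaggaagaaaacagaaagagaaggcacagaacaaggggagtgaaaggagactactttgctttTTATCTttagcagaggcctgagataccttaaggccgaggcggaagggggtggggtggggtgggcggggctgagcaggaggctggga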

How the data were processed

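The deposited table holds raw whole-number counts for each gene symbol in 24 libraries. The submitters' processing notes name STAR, DESeq2 and mm10 without a version. Which counter and annotation were used, and whether strand was considered, is not given in the sources used here, so genes that overlap or share reads with a copy are uncertain. Hippocampi were micro-dissected and RNA isolated with Tri-Reagent, per the labels' protocols. Most small counts were even, as when both mates of a read pair are counted, so intervals of counting error are wider than the counts imply. The authors' normalized counts and their table of 1 comparison were not used here.

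Groups and replicate numbers came from the sample titles. The library set, the genes named and the 41 gene lists were chosen with earlier results of these data known. The test was edgeR 4.0.16 quasi-likelihood F in R 4.3.3 (robust fit, TMM factors, filterByExpr with a minimum count of 10), with genotype as a term; the 13 libraries left 10 residual degrees of freedom. Each SE was taken as |log2 fold change| over the root of F. Effects within genotype and their difference came from a fit of group means, and the difference between library sets from a fit of all 24 libraries. Named genes had an adjusted p under 0.05, a mean of at least 1 CPM and 1 sign in every fit that left out a library (the 15 highest and 10 lowest, of which 8 existed), or were up to 4 members of a list by p; Klf15, Eltd1 and F3 were named for the test between sets. The further members of a list's count, Nr3c1, Nr3c2, Mt1, Mt2, and the genes said to be so, were named after their values were seen. A floor is 3 reads of a library and covers counting error only. CPM of genes used library sizes scaled by TMM over all 24 libraries, and Rn45s CPM is over all reads. None of the 16 pairs of libraries within a group of the 13 agreed within sampling noise; other pairs were not compared. Scripts were tested on simulated data. Values of some genes are not reported here. Alternatives were RLE size factors, DESeq2 1.42.0, limma 3.58.1 voom with quality weights, other expression filters, each library left out, marker or Rn45s terms, a replicate block and subsets of libraries.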

Additional observations from a re-analysis of the deposited data

Results flagged for a closer look

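Single libraries stood apart from the other 3 of their group by Dixon's test, where 24 of 224 tests were past the 95% critical value and chance gives about 1 in 20. WT stress replicate 5, which held thalamic transcripts, accounted for 13 of the 24. It was highest within WT stress for the blood and interferon genes Alas2 (42.7 CPM), Lyz2 (33.4 CPM) and Ifitm1 (5.86 CPM), for the thalamic and hypothalamic genes Tcf7l2 (105.0 CPM), Lef1 (25.8 CPM), Pmch (49.3 CPM) and Hcrt (25.7 CPM), for Isl1 (2.96 CPM) and Pcp4 (401 CPM), for the ependymal and choroid genes Foxj1 (27.3 CPM) and Slc16a8 (5.80 CPM), and for the nuclear RNA Neat1 (276 CPM). The clock gene Arntl had 18.8 CPM there.

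In WT stress replicate 4 the connexin gene Gjb6 had 55.1 CPM and the cell cycle gene Mki67 2.74 CPM, and in WT stress replicate 3 Vcan had 10.2 CPM. In WT control replicate 4 Abcb1a had 21.9 CPM, Pdzd2 24.5 CPM and Rpl22 139 CPM. In WT control replicate 5 Klf15 had 20.3 CPM and Sstr3 54.4 CPM, and in WT control replicate 6 Abcc9 had 6.00 CPM and Retnlg 0.121 CPM.

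The stress effect differed between the 13 libraries and the other 11 in the edgeR test of that difference for 13 genes reported here, with the log2 fold change in the 13 minus that in the other 11 as follows. It was 2.57 for Tmem252, 1.24 for Sgk1, 1.19 for Pdk4, 1.18 for Plekhg4, 0.75 for Slc2a1, 0.68 for Eltd1, 0.68 for Zmym1, 0.62 for Klf15, 0.58 for F3, 0.56 for Zfp276, 0.55 for Ppp1r3c, 0.54 for Gjb6 and 0.50 for P4ha1.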

How the results depend on the processing

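All 114 genes kept their sign over the 13 libraries with each setting below and over all 24. The number past the threshold was 115 with RLE size factors, 135 with limma voom, 114 with no expression filter and 117 with a stricter one, and 422 (348 higher, 74 lower) with DESeq2. It was 72 with thalamic markers as a term, 69 without the 3 stress libraries that held them, 37 over all 24 libraries with the set as a term, 19 in WT and 10 in KO libraries fitted alone. The log2 Rn45s term was chosen after seeing the data. Leaving out 1 library gave 29 to 185 genes for the 13 libraries, 3 to 39 in WT, 0 to 1 in KO, 0 to 4 in the other 11 and 0 to 17 for the difference between sets. Same-numbered libraries did not pair (4 of 13 correlations over 0.1, from −0.28 to 0.43); with replicate number as a block 40 genes rose and 0 fell, 36 of them among the 114.

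In WT, DESeq2 gave 145 genes, limma voom 34, the thalamic term 37, the removal of the thalamic libraries 36 and the Rn45s term 5. In KO these were 47 with DESeq2 and 884 with limma voom. No KO count is given without the thalamic libraries, since KO stress replicate 4 was then alone in its group. In the other 11 they were 9 with DESeq2, 7 with limma voom, 1 with the thalamic term and 4 with the Rn45s term. The difference between sets gave 94 with DESeq2, 486 with limma voom, 9 with no filter, 5 with the thalamic term and 3 each with the choroid term and without the thalamic libraries. The causes were not tested.

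The single test of Il1b passed without the thalamic libraries (0.709), and ran from 0.336 to 0.656 with 1 library left out. Some values turned sign, and not only those near 0. Fkbp5 had −0.0102 with voom, −0.115 over 24 libraries and −0.0465 to 0.120 with 1 library left out (single test −0.0768 to 0.147). Fos had 0.174 with voom, 0.224 and 0.198 with the thalamic and choroid terms, 0.105 with the block, 0.0262 over 24 libraries, 0.63 in WT alone, 0.373 without the thalamic libraries and −0.358 to 0.354 with 1 left out (single test −0.360 to 0.232). With the thalamic term Foxj1 had −0.0877, Isl1 −0.613, Pcp4 −0.0553 and Rpl22 0.0193. Isl1 was far from 0 without that term, at 2.42 to 6.10 with 1 library left out. Without the thalamic libraries Foxj1 had −0.112, Hcrt −0.156, Mpped1 0.0219, Pcp4 −0.106, Rpl22 0.0303 and Slc16a8 −0.0259. Hcrt too was far from 0 before, at 3.57 to 5.85 with 1 library left out. Over 24 libraries Hspa5 had −0.0165, Pdzd2 −0.0303 and Rpl3 0.0171, and in WT alone Foxj1 had −0.0877. With 2 KO control libraries, effects in KO mice are the least precise.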

Other observations

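Other gene groups gave values that did not pass. Of 40 cytosolic ribosomal protein genes 7 had a log2 fold change above 0 in the 13 libraries (median −0.05), and all 40 did in the other 11 (median 0.23). Of 35 nuclear genes of the respiratory chain 3 lay above 0 in the 13 (median −0.09) and 31 in the other 11 (median 0.12), with Sdhb, a subunit of complex II, at −0.15 ± 0.05 (SE, adjusted p = 0.194) in the 13.

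The 21 GABAergic interneuron genes had a median of −0.21 in the 13, where the serotonin receptor gene Htr3a had 6.64 to 11.9 CPM in stress and 12.6 to 15.4 CPM in control libraries, without overlap (−0.58 ± 0.13, adjusted p = 0.0581). The 18 circadian clock genes had a median of 0.11, with Arntl at −0.27 ± 0.07 (adjusted p = 0.125) and Per2 at 0.39 ± 0.11 (adjusted p = 0.166).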
